A study of Mus musculus with 32 samples.

Results

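The comparison set adolescent mice that had undergone social defeat and were labelled day 21 against those labelled day 1. Its members were chosen by label, and they are 8 of the 32 libraries of the series, 4 per day. The study sequenced polyadenylated RNA of the basolateral amygdala, a part of the forebrain that links sensory cues to fear, from adolescent and adult mice that were controls or had been exposed to social defeat, in which a mouse is attacked by an aggressive opponent. Adolescent controls of the same days, 4 libraries each, carry the day difference without defeat, and defeated adults of the same days, 4 libraries each, carry it in the other age class. All groups are mice with no genotype, strain or drug treatment given in the labels. Ages of 6 and 9 weeks appear in the design text, with no statement of which group has which age, and the event that the days count from is not given, so age and time since defeat cannot be told apart. Whether the libraries of 1 group are separate animals is not stated, and p-values therefore measure the spread between these samples.

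Social defeat raises glucocorticoids, the adrenal stress hormones. These bind the glucocorticoid receptor, encoded by Nr3c1, which then enters the nucleus, binds DNA and raises transcription of genes such as Sgk1, Tsc22d3 and Fkbp5. Neuronal activity induces another set, the immediate early genes, among them the transcription factors Fos, Fosb, Egr1 and Egr3, without the need for new protein. In the basolateral amygdala both sets are used as readouts of a recent stressor or of recent activity.

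The 8 libraries held 54380085 to 82208892 counts, within the range of all 32 (53885799 to 82208892). Levels are in CPM, that is counts scaled to the size of each library, and are compared between libraries and not between genes. The defining genes of the tissue were present: Slc17a7, the vesicular glutamate transporter of pallial neurons, lay between 789 and 1135 CPM in the 8 libraries, and Rspo2, a marker of basolateral amygdala neurons, between 14.2 and 21 CPM. Summed over 20 basolateral amygdala and pallial genes, the level was 5552 to 6136 CPM at day 1 and 5846 to 6580 CPM at day 21. The sum of 23 striatal and central amygdala genes was 4361 to 5163 CPM at day 1 and 3981 to 6104 CPM at day 21. No marker list had a member at 0 in all 8 libraries.

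Ttr, which encodes the thyroid hormone carrier transthyretin and is the most characteristic transcript of choroid plexus epithelium, set the libraries apart. In the defeated adolescents of day 1 it stood at 1220, 880, 813 and 1152 CPM in replicates 1 to 4. At day 21 it stood at 622 CPM in replicate 1 and at 1.07, 2.72 and 7.91 CPM in the others. All 4 day 1 libraries were thus high, and 1 of the 4 day 21 libraries was. The difference in mean log2 CPM was -6.52 (exact permutation test, two-sided, p = 0.0286, the smallest p that 4 against 4 allows), while edgeR's quasi-likelihood test gave a log2 change of -2.68 ± 2.05 (SE) with an adjusted p of 0.702. Ttr was chosen with earlier results of these samples known, so the permutation p is only a description. Libraries of the 2 days did not overlap for 7.8% of all tested genes. Across the series 11 of 32 libraries were above 100 CPM, including 1 in each adolescent control group (982 CPM at day 1 and 640 CPM at day 21). In bulk tissue, fewer cells of a type and less RNA per cell cannot be told apart.

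**Figure D1:**
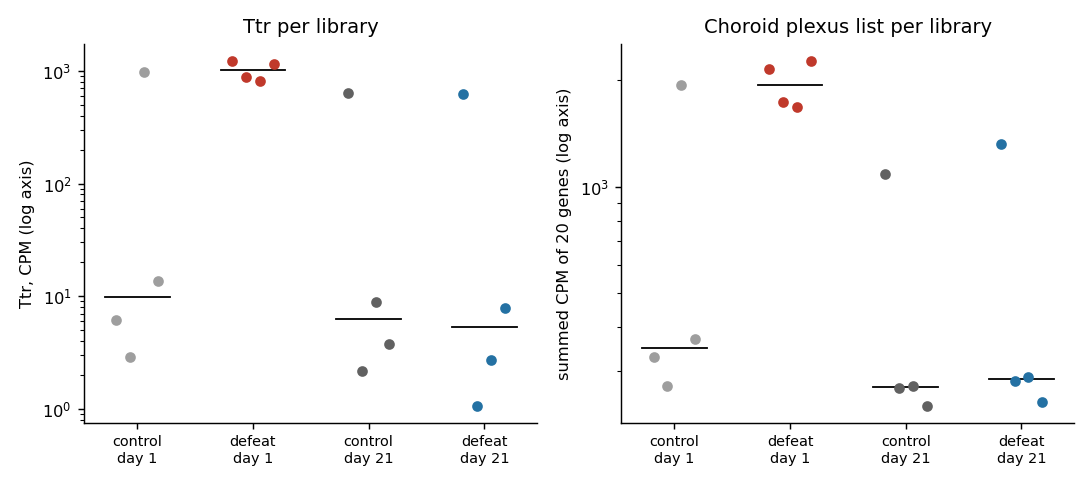
Left, Ttr in CPM on a log axis, and right, the summed CPM of 20 choroid plexus genes on a log axis, for each library (points, in replicate order from left to right) of the 4 adolescent groups, with the group median as a line. The 20 genes include Ttr. The 4 defeat day 1 libraries sit together at 813 to 1220 CPM of Ttr, whereas the other groups have 1 high library each.

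The list of 20 choroid plexus genes, which holds Ttr itself, followed the same split. Its summed level was 1679 to 2266 CPM at day 1. At day 21 it was 1320 CPM in replicate 1 and 245 to 289 CPM in the other libraries. Ttr alone made up 813 to 1220 CPM of the day 1 sums and 622 CPM of the sum in day 21 replicate 1. The sums, medians and counts of this list are therefore not separate from Ttr. Otx2, a choroid plexus transcription factor, was at 3.89 to 5.30 CPM at day 1, at 2.90 CPM in day 21 replicate 1 and at 0 in the other 3. Over the 20 genes the median log2 change was -2.14, with none passing the adjusted threshold, beside 0.379% of all genes that fell. In controls the median was -0.76 with 1 gene, Car14, lower, beside 0.593% of all genes. At an unadjusted p under 0.05 (edgeR), 8 of the 20 were lower after defeat and 0 higher, beside 5.93% and 5.38% of all genes. Ependymal and cilia genes, from cells that line the ventricles, had a median of -1.02 after defeat and -0.08 in controls, and their summed level was 99.8 to 127 CPM at day 1 and 77.0 to 89.6 CPM at day 21. For meningeal fibroblast genes the medians were -0.54 and -0.45, and for blood genes -0.55 and -0.15. Day and choroid plexus RNA moved together in these 8 libraries, so an adjusted p with the Ttr level as a covariate is given below for the named genes that changed.

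Between day 1 and day 21, 148 genes changed in defeated adolescents, which is 0.622% of the 23778 tested. The threshold was an adjusted p under 0.05 (Benjamini-Hochberg) from the quasi-likelihood test of edgeR. Of these, 58 were higher at day 21 (0.244%) and 90 were lower (0.379%). At an unadjusted p under 0.05 there were 2690 genes, 1280 higher (5.38%) and 1410 lower (5.93%). The changes were small: 18 of the 148 exceeded 1 on the log2 scale, and the median log2 change of all tested genes was 0.002. Libraries of the 2 days did not overlap for 137 of the 148 genes, and for 7.8% of all tested genes. Leaving out day 1 replicates 1 to 4 in turn gave 95, 107, 59 and 70 genes, and leaving out day 21 replicates 1 to 4 gave 72, 67, 64 and 82. With the Ttr level as a covariate, 21 genes passed (7 higher, 14 lower), and with a choroid plexus score 28 did (10 higher, 18 lower). Of the 38 changed genes named by rule, all 38 kept their direction with the Ttr covariate, 13 passed, and their log2 changes were at a median of 0.962 times the values without it. Those that passed include Egr3, Arrdc2, Ptgds, Lix1, Lmcd1, Tmem163, Ccl27al, Plk5, Gnb4, Adipor2, Nts and Eda2r, with adjusted p from 0.000592 to 0.0497. With a covariate that nearly follows the day, the day change and choroid plexus RNA cannot be told apart by these counts.

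Glucocorticoid-responsive genes were lower at day 21 as a group. All 28 genes of the list had log2 changes below 0, 8 of them fell (none rose) against the 0.379% of all genes that did, and the list's median log2 change was -0.52 beside 0.002 for all genes. At an unadjusted p under 0.05, 22 of the 28 were lower, beside 5.93% of all genes. The list was compiled with earlier results of these same samples known, so its direction is not independent evidence.

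Sgk1, a kinase that regulates ion channels and is induced by glucocorticoids, stood at 133, 134, 161 and 198 CPM at day 1 and at 61.5, 49.1, 65.8 and 73.2 CPM at day 21. The groups did not overlap, and the highest day 21 library was far below the lowest of day 1. The level was 2.51-fold lower at day 21 (log2 change -1.33 ± 0.29 SE, adjusted p = 0.0259, edgeR). In the controls it ranged from 40.7 to 104 CPM at day 1 and from 53.1 to 87.5 CPM at day 21, so the day 21 defeat libraries lay within the control range. The call was lost without day 1 replicate 3 or 4, or day 21 replicate 1, 2 or 3, with adjusted p up to 0.0993 and log2 changes from -1.42 to -1.19.

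Map3k6, a stress-activated kinase, was at 6.55, 4.10, 4.73 and 6.59 CPM at day 1 and at 2.94, 2.95, 3.61 and 2.87 CPM at day 21, without overlap. Its log2 change was -0.83 ± 0.19 (adjusted p = 0.0309, edgeR). The call was lost without day 1 replicate 1 or 4, or day 21 replicate 1, 2 or 4, with adjusted p up to 0.108.

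Upstream sequences of Map3k6 and Sgk1 are shown because they are the 2 of the 8 fallen genes whose 250 bases before a RefSeq transcription start hold the letters ACANNNTGT. This is the spacing of the paired half-sites bound by the glucocorticoid receptor, and being a palindrome it reads the same on both strands. The sequences are from RefSeq on GRCm38.p6, 5′ to 3′ on the plus strand, which is the gene's strand, with the match in capitals. The Map3k6 window is chr4:133240568-133240817, with the match beginning 179 bases before the start, and the Sgk1 window is chr10:21993640-21993889, with the match beginning 186 bases before it.
Map3k6: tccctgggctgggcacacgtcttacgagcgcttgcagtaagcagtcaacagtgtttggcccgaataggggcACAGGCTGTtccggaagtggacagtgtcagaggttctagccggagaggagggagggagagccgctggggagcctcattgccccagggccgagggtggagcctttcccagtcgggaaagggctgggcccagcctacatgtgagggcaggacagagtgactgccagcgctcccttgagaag
Sgk1: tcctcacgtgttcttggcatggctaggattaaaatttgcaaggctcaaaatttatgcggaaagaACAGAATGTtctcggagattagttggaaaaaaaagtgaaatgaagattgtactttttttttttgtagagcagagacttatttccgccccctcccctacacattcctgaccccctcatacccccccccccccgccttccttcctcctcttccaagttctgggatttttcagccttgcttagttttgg
A second Sgk1 start, with the window chr10:21978422-21978671, holds another match 127 bases before it. Of the 25 list members with a RefSeq window, 5 hold these letters (20%), and of the 8 that fell 2 do (25.0%), beside 5.08% of the 14302 tested genes with a window and 6.76% of all 27025 genes with one. A gene counted if any of its windows held the letters, so genes with several starts had more chances. 3 further motifs were searched on both strands: the E-box CACGTG, the cyclic AMP response element TGACGTCA and the CArG box. Counted by gene in the same way, CACGTG is in 20% of the list beside 8.94% of tested genes, TGACGTCA is in 8% beside 2.59%, and the CArG box is in 0% beside 1.52%. A match of letters is a description and shows no binding.

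Arrdc2, an arrestin-domain gene induced by glucocorticoids in muscle, had the second smallest p of all genes. It stood at 24.8, 21.9, 29.8 and 35.0 CPM at day 1 and at 13.2, 12.2, 12.6 and 13.7 CPM at day 21, a 2.16-fold lower level (log2 change -1.11 ± 0.14, adjusted p = 0.000152, edgeR). The 4 day 21 values lay within 2 CPM of each other and below every day 1 value, and the call held in all 8 fits that left out a library. In controls Arrdc2 ranged from 13.2 to 18.6 CPM at day 1 and from 13.1 to 15.3 CPM at day 21.

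Tsc22d3, which encodes the anti-inflammatory protein GILZ, was at 64.4, 61.8, 67.9 and 93.4 CPM at day 1 and at 46.4, 41.2, 44.6 and 48.9 CPM at day 21. Its log2 change was -0.67 ± 0.12 (adjusted p = 0.00899, edgeR), and the groups did not overlap. In controls it went from 44.4 to 59.2 CPM at day 1 to 52 to 72.9 CPM at day 21, with a log2 change of 0.28 ± 0.12 (adjusted p = 0.35). The defeat call held without any 1 of the 8 libraries, with adjusted p up to 0.0448.

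Sult1a1, a sulfotransferase, spread widely at day 1, with 19.8, 7.29, 7.97 and 14.7 CPM, and stood at 5.75, 6.29, 5.32 and 6.72 CPM at day 21. Its log2 change was -1.04 ± 0.20 (adjusted p = 0.00941, edgeR). Replicates 2 and 3 of day 1 were close to the day 21 level, and without day 1 replicate 1 the log2 change was -0.73 and the adjusted p 0.0533. The adjusted p of Sult1a1 with the Ttr covariate was 0.0647.

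The other fallen members were Ddit4, an inhibitor of mTORC1, Klf15, a transcription factor of metabolic genes, and Fmo2, a monooxygenase. Ddit4 went from 51.9 ± 5.30 to 31.1 ± 4.46 CPM (mean ± SD, n = 4 libraries per day; log2 change -0.74 ± 0.16, adjusted p = 0.0280 by edgeR's model). Klf15 went from 27.9 ± 2.86 to 20.3 ± 2.13 CPM (log2 change -0.46 ± 0.11, adjusted p = 0.0349), and Fmo2 from 1.18 ± 0.266 to 0.519 ± 0.125 CPM (log2 change -1.18 ± 0.28, adjusted p = 0.0425). For each of the 3 genes the days did not overlap. Each lost its call in 5 or 6 of the 8 fits that left out a library: Ddit4 kept it without day 1 replicate 2 or day 21 replicate 4, Klf15 without day 1 replicate 1 or 2 or day 21 replicate 4, and Fmo2 without day 1 replicate 2 or day 21 replicate 1. The largest adjusted p were 0.0993, 0.155 and 0.146.

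Members that did not pass had changes of the same sign. Galnt15 was at -1.15 ± 0.29 (adjusted p = 0.0598), Plin4, which coats lipid droplets, at -1.70 ± 0.43 (adjusted p = 0.0640), and Klf9, a transcription factor induced by glucocorticoids, at -0.25 ± 0.06 (adjusted p = 0.0683). Fkbp5, whose product slows ligand binding by the glucocorticoid receptor, was at 52.1, 41.2, 42.1 and 62.8 CPM at day 1 and at 41.6, 39.6, 38.1 and 39.9 CPM at day 21 (log2 change -0.32 ± 0.11, adjusted p = 0.194). Its groups overlapped through day 1 replicate 2. Per1, a clock gene that glucocorticoids also induce, was at -0.22 ± 0.11 (adjusted p = 0.440). Nr3c1, the receptor itself, was at 71.4 to 74.7 CPM at day 1 and 70.6 to 77.8 CPM at day 21 (log2 change 0.03 ± 0.06, adjusted p = 0.945).

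**Figure D2:**
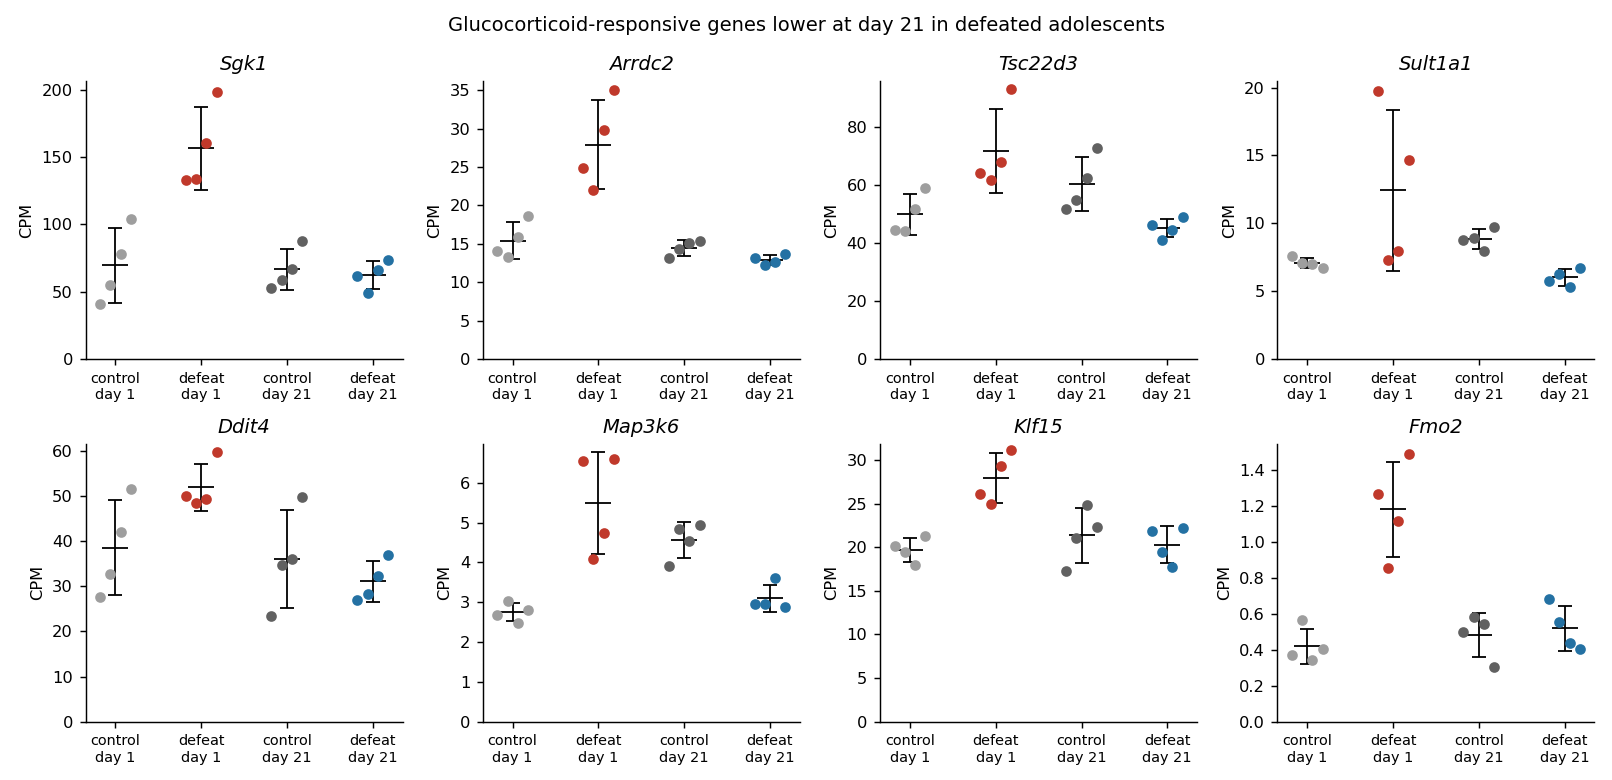
CPM of the 8 glucocorticoid-responsive genes that fell between days in defeated adolescents, for each library (points, in replicate order) of the 4 adolescent groups, with the mean and SD of 4 libraries in black. The defeat day 1 libraries are the highest group of each panel by mean, and the defeat day 21 libraries lie below all of them.

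The day 21 library with high Ttr was low in these genes too. In that library alone, set against the 4 day 1 libraries, the list's median log2 change was -0.58, and the log2 change was -1.35 for Sgk1, -1.08 for Arrdc2, -0.63 for Tsc22d3, -1.11 for Sult1a1 and -0.90 for Map3k6. These values rest on 1 library at day 21, and whether choroid plexus RNA had a part in the fall was not tested. With Ttr as a covariate the list's median was -0.54 and 1 of the 8 genes, Arrdc2, still passed. Sgk1 then had a log2 change of -1.32 with an adjusted p of 0.144, and Tsc22d3 one of -0.64 with an adjusted p of 0.0705. The adjusted p was 0.137 for Map3k6, 0.0542 for Ddit4, 0.136 for Klf15 and 0.268 for Fmo2. Leaving out 1 library left 3 to 10 members lower, with medians from -0.61 to -0.38: 4, 10, 4 and 3 without day 1 replicates 1 to 4, and 4, 3, 4 and 6 without day 21 replicates 1 to 4. The mean log2 CPM of the list, 4.78, 4.40, 4.61 and 5.07 at day 1, was 4.13 in the high-Ttr library of day 21 and 4.0 to 4.26 in the other 3.

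Genes outside that list that fell include Ptgds, which encodes the prostaglandin D2 synthase made by meninges, choroid plexus and oligodendrocytes. It stood at 331, 253, 289 and 270 CPM at day 1 and at 134, 124, 124 and 113 CPM at day 21, 2.31-fold lower (log2 change -1.21 ± 0.17, adjusted p = 0.000665, edgeR). The groups were far apart, and the library of day 21 with high Ttr, at 134 CPM, was near the other 3. In controls Ptgds was at 109 to 182 CPM at day 1 and 117 to 151 CPM at day 21.

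Adipor2, an adiponectin receptor, went from 70.5 ± 11.9 to 49.0 ± 2.89 CPM (log2 change -0.53 ± 0.09, adjusted p = 0.00294, edgeR, n = 4) with a log2 change of 0.01 ± 0.08 in controls. Ccl27al, a chemokine-like gene, went from 4.01 ± 0.35 to 1.69 ± 0.232 CPM (log2 change -1.25 ± 0.20, adjusted p = 0.00294). Its reads may be shared with near-identical Ccl27a copies, so its level is uncertain. Cnksr3, a scaffold protein of sodium channel regulation, had a log2 change of -0.61 ± 0.11 (adjusted p = 0.00583), and Sema5a, an axon guidance gene, one of -0.36 ± 0.06 (adjusted p = 0.00772). Both were also lower in controls, at -0.83 ± 0.11 and -0.27 ± 0.06. Cnksr3 had an adjusted p of 0.0542 and Sema5a one of 0.0589 with the Ttr covariate.

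Eda2r, a receptor of the tumour necrosis factor family, was nearly absent at day 21. It had 9, 16, 46 and 23 counts in day 1 replicates 1 to 4 and 0, 4, 0 and 0 counts at day 21. The ratio of summed counts scaled to library size was 21.2 (95% exact interval 8 to 79.3, counting error only), and edgeR gave an adjusted p of 0.00583. At these low counts the call of Eda2r was lost in a fit of only the groups compared (adjusted p = 0.0598), and in that fit with a replicate block. With the high-Ttr library alone the log2 change was -7.43, a value that rests on 1 library with 0 counts. The call was also lost with 3 scores as covariates (adjusted p = 0.145), and DESeq2 gave no adjusted p. The adjusted p was 0.0497 with the Ttr covariate and up to 0.0303 with 1 library left out. In controls it was at 0.255 to 0.523 CPM at day 1 and 0.183 to 0.381 CPM at day 21, a range that the day 21 defeat libraries, at 0 to 0.0738 CPM, lay below.

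Of 26 genes of cholesterol and fatty acid synthesis, 3 fell after defeat and none rose, beside 0.379% of all genes that fell, and 1 fell in controls, beside 0.593%. All 26 log2 changes were below 0 after defeat, with a median of -0.12, and the median in controls was -0.13. In the fit with Ttr as a covariate, 1 gene of the list was lower. Sc5d, an enzyme of late cholesterol synthesis, stood at 61.8, 70.1, 64.3 and 69.9 CPM at day 1 and at 57.1, 55.4, 57.1 and 55.2 CPM at day 21, without overlap (log2 change -0.24 ± 0.05, adjusted p = 0.0277, edgeR). In defeated adults it was at -0.22 ± 0.05 between the same days. Sc5d kept its call only without day 1 replicate 1 or 3, and reached an adjusted p of 0.0837 otherwise and 0.185 with the Ttr covariate.

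Of 20 genes of mature oligodendrocytes, the myelin-forming cells, 1 fell in defeated adolescents, beside 0.379% of all genes, and 6 fell in controls, beside 0.593%. The list's median log2 change was -0.47 after defeat and -0.62 in controls. The gene that fell in defeated mice was Cldn11, a tight junction protein of myelin, at 234, 249, 290 and 305 CPM at day 1 and 156, 169, 170 and 114 CPM at day 21 (log2 change -0.82 ± 0.18, adjusted p = 0.0247, edgeR). Its control change was -0.81 ± 0.18 (adjusted p = 0.0187). Summed over the list, the level was 10510 to 13560 CPM at day 1 and 6533 to 9370 CPM at day 21 after defeat, and 9321 to 13840 CPM and 6975 to 8238 CPM in controls. Without day 1 replicate 3 or 4, or day 21 replicate 1 or 4, the adjusted p of Cldn11 was up to 0.0784, and with the Ttr covariate it was 0.0992. Tmem163, a zinc transporter of newly formed oligodendrocytes, fell by 0.70 ± 0.11 on the log2 scale after defeat (adjusted p = 0.00294) and by 0.69 ± 0.11 in controls (adjusted p = 0.00239).

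Among neuronal genes that fell, several mark the claustrum and the endopiriform nucleus, which lie beside the basolateral amygdala. A list of 12 such genes, written after the values were seen and so only a description, had 6 lower members after defeat, beside 0.379% of all genes, and 4 in controls, beside 0.593%, with medians of -0.60 and -0.53. Gnb4 alone of the list was lower after defeat with the Ttr covariate, where the median was -0.58. Gnb4, a G protein subunit, went from 80.5 ± 7.30 to 50.5 ± 3.01 CPM (log2 change -0.67 ± 0.11, adjusted p = 0.00453, edgeR, n = 4). Nr4a2, an orphan nuclear receptor of claustral neurons that also counts as an immediate early gene, went from 82.6 ± 14.2 to 48.2 ± 6.19 CPM (log2 change -0.78 ± 0.18, adjusted p = 0.0349). The others were Gfra2, a neurturin receptor (-0.52 ± 0.09), Rxfp1, a relaxin receptor (-0.79 ± 0.16), Smim32 (-1.20 ± 0.28) and Nxph4, a neurexophilin (-0.69 ± 0.17). The list's summed level was 689 to 837 CPM at day 1 and 556 to 623 CPM at day 21 after defeat, and 751 to 793 CPM and 516 to 654 CPM in controls. Nr4a2 kept its call only without day 1 replicate 2 or 4, reaching an adjusted p of 0.126 otherwise. Rxfp1 lost its call without replicate 1 or 3 of either day (adjusted p up to 0.0902), Smim32 kept its call only without day 1 replicate 2 (up to 0.131), and Nxph4 lost its call whichever 1 of the 8 libraries was left out (up to 0.166). With the Ttr covariate the adjusted p was 0.0542 for Gfra2, 0.239 for Nr4a2, 0.143 for Rxfp1, 0.199 for Smim32 and 0.163 for Nxph4.

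The gene with the smallest p of all rose. Egr3, a transcription factor of the immediate early class, stood at 90.5, 102, 105 and 96.5 CPM at day 1 and at 142, 136, 157 and 135 CPM at day 21. The lowest day 21 library was well above the highest day 1 library, and the level was 1.45-fold higher (log2 change 0.53 ± 0.06, adjusted p = 1.83e-05, edgeR). The change was present in controls, from 99.5 to 119 CPM at day 1 to 144 to 154 CPM at day 21 (log2 change 0.39 ± 0.06, adjusted p = 0.00214). In the high-Ttr library of day 21 alone the log2 change was 0.53, a value that rests on 1 library.

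Of the 30 immediate early genes, 3 rose after defeat, beside 0.244% of all genes, and 1, Nr4a2, fell, beside 0.379%, with a median log2 change of 0.25. In controls 3 rose, beside 0.332% of all genes, and 1 fell, beside 0.593%, with a median of 0.12. With the Ttr covariate 1 member, Egr3, was higher and the median was 0.16, and in the high-Ttr library of day 21 alone the median was -0.10. Fosb, a member of the AP-1 transcription factor family, stood at 11.83, 12.36, 12.12 and 12.08 CPM at day 1 and at 15.1, 20.1, 21.4 and 21.3 CPM at day 21 (log2 change 0.69 ± 0.14, adjusted p = 0.0132, edgeR). The day 1 libraries were nearly equal, and the lowest day 21 library was the one with high Ttr. In that library alone the log2 change of Fosb was 0.32, and without day 21 replicate 3 the adjusted p was 0.0550. Fosb had an adjusted p of 0.158 with the Ttr covariate. Homer1, a postsynaptic scaffold with an activity-induced short form, went from 107 ± 11.5 to 146 ± 24.2 CPM (log2 change 0.45 ± 0.10, adjusted p = 0.0369) and overlapped between days. It kept its call only without day 1 replicate 4 or day 21 replicate 4, and its adjusted p with the Ttr covariate was 0.163.

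The classical members did not pass. Fos was at 6.75 to 13.2 CPM at day 1 and 7.77 to 18.4 CPM at day 21 (log2 change 0.49 ± 0.31, adjusted p = 0.617), and Arc was at 59.4 to 110 CPM and 60.0 to 126 CPM (0.24 ± 0.28, adjusted p = 0.834). Egr1 was at 132 to 184 CPM and 143 to 201 CPM (0.15 ± 0.14, adjusted p = 0.752). Npas4, a neuron-specific activity factor, was at 10.2 to 20.5 CPM and 14.6 to 29.5 CPM (0.72 ± 0.19, adjusted p = 0.0684). Bdnf, a neurotrophin whose transcription follows activity, went from 16.4 to 21.4 CPM to 23.5 to 28.1 CPM without overlap (0.42 ± 0.14, adjusted p = 0.196). In the high-Ttr library alone, Fos, Arc and Egr1 were at -0.42, -0.44 and -0.14.

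Other genes that rose include secreted neuropeptides and their kin. Nts, the precursor of neurotensin, stood at 13.9, 19.2, 13.6 and 15.6 CPM at day 1 and at 34.1, 28.4, 31.7 and 19.3 CPM at day 21. The lowest day 21 library barely exceeded the highest day 1 library, and the level was 1.82-fold higher (log2 change 0.87 ± 0.15, adjusted p = 0.00583, edgeR). In controls the log2 change of Nts was 0.09 ± 0.15 (adjusted p = 0.912), and in defeated adults it was 0.65 ± 0.15 (adjusted p = 0.0420). The difference between the day changes of defeated and control adolescents did not pass for Nts (0.78 ± 0.21, adjusted p = 0.591). Its call after defeat was lost with 3 scores as covariates (adjusted p = 0.185). It was also lost in a fit of only the groups compared with a replicate block. Vgf, a neurosecretory protein precursor, went from 285 ± 19.7 to 357 ± 3.44 CPM (log2 change 0.33 ± 0.08, adjusted p = 0.0386), a call that held only without day 1 replicate 2 and was lost with the Ttr covariate (adjusted p = 0.262). The control change of Vgf was 0.24 ± 0.08 (adjusted p = 0.144). Nts and Vgf were the 2 of 23 neuropeptide genes that passed, beside 0.244% of all genes that rose, and the list's median was 0.04. Crh, which encodes corticotropin-releasing hormone, was at 0.15 ± 0.17 (adjusted p = 0.815), and none of the 12 genes of the corticosteroid receptor and corticotropin-releasing hormone system passed.

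Lix1, named for its expression in the limb, went from 37.7 ± 2.06 to 50 ± 1.70 CPM (log2 change 0.41 ± 0.06, adjusted p = 0.000533, edgeR, n = 4). Lmcd1, a transcriptional co-regulator with LIM domains, went from 3.64 ± 0.341 to 6.49 ± 0.348 CPM (0.83 ± 0.13, adjusted p = 0.00263). Plk5, a brain-expressed member of the polo-like kinase family, rose by 0.43 ± 0.07 (adjusted p = 0.00583), and Cdh4, a cadherin of neuronal adhesion, by 0.39 ± 0.07 (adjusted p = 0.00772). Hnrnpm, a splicing factor, rose by 0.23 ± 0.04 (adjusted p = 0.00639). Dbn1, an actin-binding protein of dendritic spines, rose by 0.20 ± 0.04 (adjusted p = 0.00899), and Ncoa5, a nuclear receptor coactivator, by 0.23 ± 0.04 (adjusted p = 0.00986). Htr4, a serotonin receptor, rose by 0.57 ± 0.11 (adjusted p = 0.0116), from 6.60 to 8.32 CPM at day 1 to 10.8 to 12.3 CPM at day 21. Dlx1as, a noncoding RNA antisense to the interneuron factor Dlx1, was at 0.48 ± 0.09 (adjusted p = 0.00899), and since it is not given whether strand was used in counting, its reads cannot be told from those of Dlx1. All 9 of these genes also had log2 changes above 0 in controls, from 0.11 for Ncoa5 to 0.25 for Lix1. Lix1 (0.25 ± 0.06, adjusted p = 0.0250, edgeR) and Hnrnpm (0.20 ± 0.04, adjusted p = 0.0124) passed there, and the others did not. Without day 21 replicate 4, Dbn1 and Dlx1as had adjusted p of 0.0516 and 0.0521 after defeat. With the Ttr covariate the adjusted p was 0.144 for Htr4, 0.124 for Ncoa5, 0.0726 for Dbn1, 0.0647 for Dlx1as and 0.0542 for both Cdh4 and Hnrnpm, so that Lix1, Lmcd1 and Plk5 alone of these 9 genes passed.

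**Figure D3:**
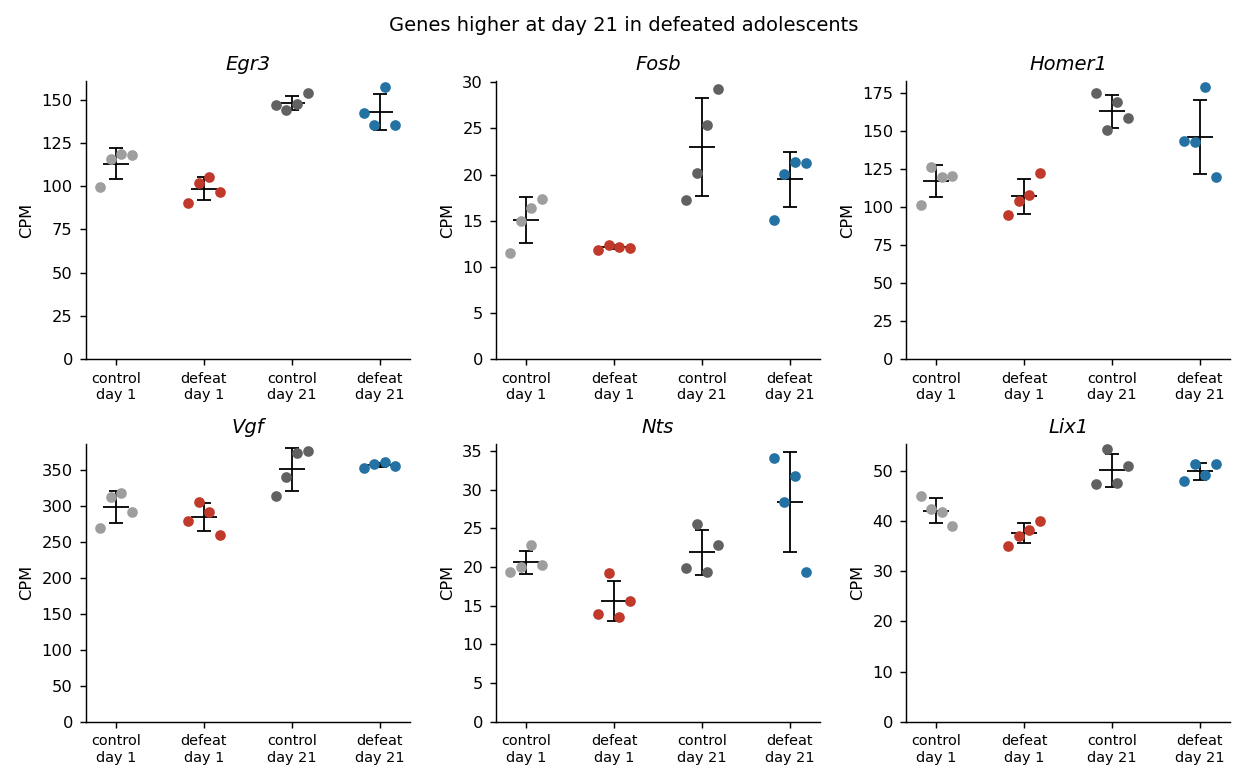
CPM of 6 genes that rose between days in defeated adolescents, for each library (points, in replicate order) of the 4 adolescent groups, with the mean and SD of 4 libraries in black. Egr3, Fosb, Homer1 and Lix1 are higher at day 21 in both defeated and control mice. Vgf has a control log2 change of 0.24 ± 0.08 (edgeR, adjusted p = 0.144). Nts in controls is at 19.4 to 22.8 CPM at day 1 and 19.4 to 25.6 CPM at day 21. The difference between its 2 day changes did not pass.

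Some cell type lists held 1 to 3 passing genes, beside 0.244% of all genes that rose and 0.379% that fell. Rasgrf2, a Ras exchange factor, and Otof, a calcium sensor of exocytosis, rose in the list of 20 basolateral amygdala and pallial genes, by 0.26 ± 0.06 (adjusted p = 0.0252) and 0.37 ± 0.09 (adjusted p = 0.0434, edgeR), and Nr4a2 fell. Calb1, a calcium buffer of interneuron subsets, rose by 0.27 ± 0.06 (adjusted p = 0.0399), and was the only one of 20 interneuron genes to pass. Fabp7, a fatty acid binding protein of astrocytes, rose by 0.59 ± 0.14 (adjusted p = 0.0334), and was the only one of 18 astrocyte genes. Calb1, Otof and Fabp7 each kept their call in 1 of the 8 fits that left out a library: Calb1 without day 21 replicate 4, Otof without day 21 replicate 1 and Fabp7 without day 1 replicate 2. Rasgrf2 lost it without day 1 replicate 2 or 3, or day 21 replicate 1 or 4 (adjusted p up to 0.0944). None of these 4 genes passed with the Ttr covariate, with adjusted p from 0.163 to 0.384.

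None of the 19 clock genes passed, with a median log2 change of 0.00. Dbp, a clock output factor, was at 107 to 132 CPM at day 1 and 105 to 116 CPM at day 21 (-0.12 ± 0.08, adjusted p = 0.668). The lists of microglial, interferon, endothelial, pericyte, extracellular matrix, perineuronal net, receptor, channel, synaptic vesicle, mitochondrial, ribosomal and chromatin genes also had no passing member, with medians between -0.15 and 0.11. The same held for immature neuron genes (-0.07), cell division genes (-0.12) and striatal genes (0.13). Of 28 heat shock and unfolded protein genes none passed after defeat, with a median of 0.09. In controls 5 were higher, beside 0.332% of all genes, with a median of 0.21, and none passed the test of the difference between the 2 day changes.

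**Figure D4:**
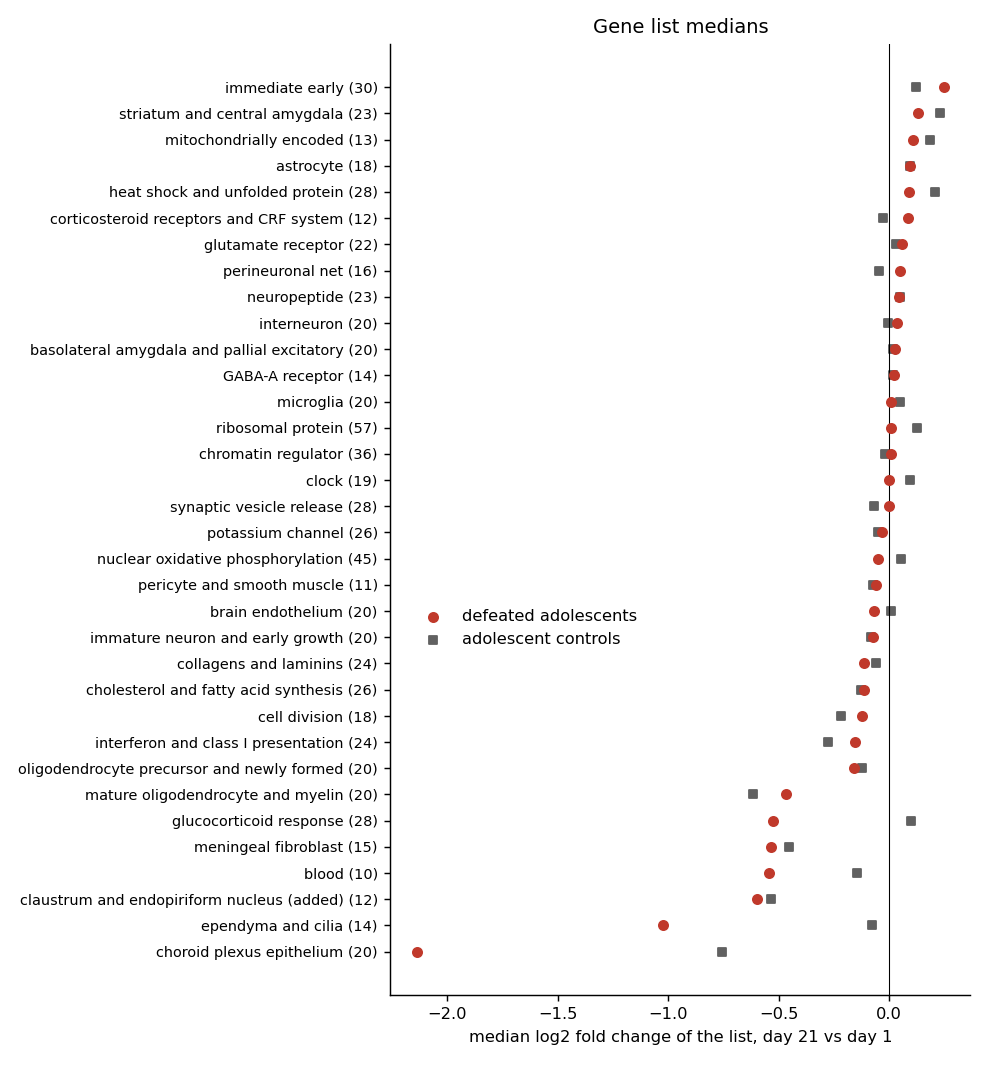
Median log2 fold change between day 21 and day 1 of each gene list (rows, number of tested genes in brackets) in defeated adolescents (red circles) and adolescent controls (grey squares). The glucocorticoid response list is at -0.52 after defeat and 0.10 in controls, while the myelin list is at -0.47 and -0.62.

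Adolescent controls changed between the same days too, and this comparison shares no library with that of the defeated mice. In controls 220 genes passed (0.925%), 79 higher (0.332%) and 141 lower (0.593%), and 2817 had an unadjusted p under 0.05. The genes passing in both comparisons numbered 38, all in the same direction, which is 25.7% of those of defeated mice and 17.3% of those of controls. Of the 148 genes, 132 had a control change of the same sign, and the share of all tested genes with agreeing signs was not counted. Cnksr3 had one of the smallest p in controls (log2 change -0.83 ± 0.11, adjusted p = 0.000336, edgeR). Smurf1, a ubiquitin ligase, was lower in controls by -0.32 ± 0.04 (adjusted p = 0.000520), at 72.3 to 75.9 CPM at day 1 and 57.5 to 62.6 CPM at day 21, and was at -0.07 ± 0.04 after defeat (adjusted p = 0.620). Hspa5, a chaperone of the endoplasmic reticulum, was higher in controls by 0.49 ± 0.08 (adjusted p = 0.00214) and at 0.25 ± 0.08 after defeat (adjusted p = 0.131). Zdhhc9, a palmitoyltransferase of oligodendrocytes, was lower in both, at -0.50 ± 0.08 and -0.36 ± 0.08 (adjusted p = 0.00214 and 0.0246, the latter 0.167 with the Ttr covariate). Without the 2 control libraries above 100 CPM of Ttr, 93 genes passed in controls. Leaving out 1 control library gave 59 to 204 genes, with the fewest without day 21 replicate 4, and 142, 98, 93 and 88 without day 1 replicates 1, 3 and 4 and day 21 replicate 2.

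**Figure D5:**
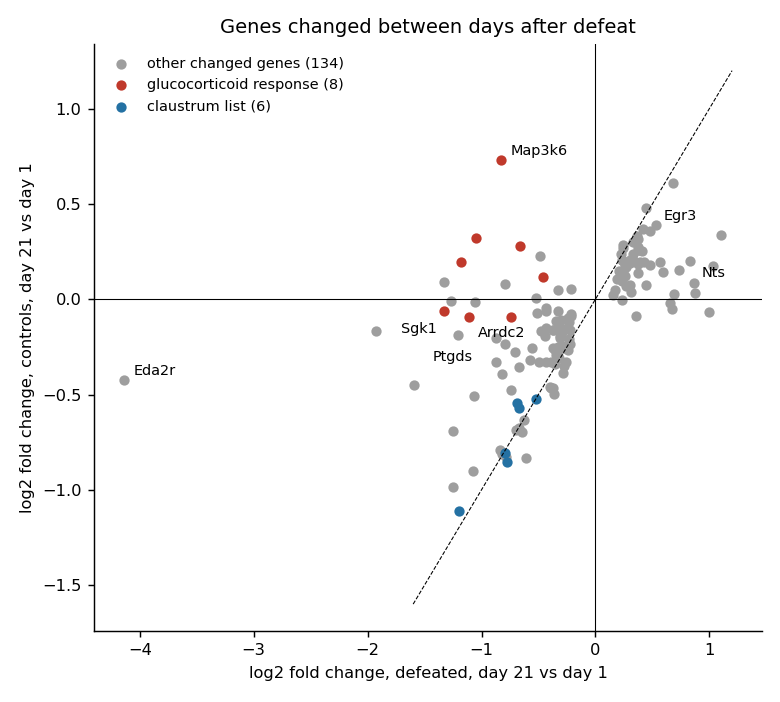
Log2 fold change between day 21 and day 1 in defeated adolescents (x axis) against that in adolescent controls (y axis) for the 148 genes that changed in defeated adolescents, with the dashed line marking equal change. The 6 claustrum genes lie near the line, whereas the 8 glucocorticoid-responsive genes lie between -0.09 and 0.73 on the control axis, and the far left point, Eda2r, has a fitted value that depends on the prior count.

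The difference between the 2 day changes was tested as an interaction. Here 1 gene passed (0.00421%), Map3k6, and 1181 had an unadjusted p under 0.05. The interaction of Map3k6 was -1.56 ± 0.26 on the log2 scale (adjusted p = 0.0454, edgeR): it fell in defeated mice as given above, while controls were at 2.68, 3.03, 2.49 and 2.81 CPM at day 1 and at 3.92, 4.84, 4.54 and 4.95 CPM at day 21. The 2 control groups did not overlap, with a control change of 0.73 ± 0.19 (adjusted p = 0.0512). Among the 28 glucocorticoid-responsive genes, all 28 had interactions below 0, with a median of -0.63, and 18 were lower at an unadjusted p under 0.05, beside 2.77% of all genes. Tsc22d3 was at -0.94 ± 0.17 (adjusted p = 0.0896), and Arrdc2, Sult1a1 and Plin4 were at -1.02 ± 0.20, -1.37 ± 0.28 and -3.06 ± 0.61 (adjusted p = 0.132 each). The interaction contains the same 8 defeat libraries as the day comparison and is no independent count. Map3k6 lost its interaction call in 12 of the 16 fits that left out a library, with adjusted p up to 0.211 without defeat day 1 replicate 4, and kept it without defeat day 1 replicate 2 or 3, defeat day 21 replicate 3 or control day 21 replicate 1.

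The day change of defeated adolescents was also set against that of defeated adults. There 1 gene passed (0.00421%), Egr3, and 1591 had an unadjusted p under 0.05. Egr3 stood at 171, 162, 174 and 186.5 CPM in adults at day 1 and at 163, 177, 176 and 165 CPM at day 21, without separation, with a log2 change of -0.03 ± 0.06. The difference between age classes was 0.56 ± 0.08 (adjusted p = 0.00642, edgeR), and it held without any 1 of the 16 libraries, with adjusted p up to 0.0425. In adolescents Egr3 thus rose from 90.5 to 105 CPM to 135 to 157 CPM, which was still below the lowest adult value of 162 CPM. Fosb had an age difference of 0.95 ± 0.19 (adjusted p = 0.0869), and Tsc22d3 and Map3k6 had differences of -0.89 ± 0.17 and -1.34 ± 0.26 (adjusted p = 0.0857 each). Of the 30 immediate early genes, 26 had a difference above 0 with a median of 0.44, beside a median of -0.32 for the adult day change. The share of all tested genes with a difference above 0 was not counted.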

How the data were processed

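Polyadenylated RNA of 32 mouse libraries was sequenced. Per the file headers, the authors deposited raw read counts and FPKM values for 40392 genes. The submitters' processing notes name cutadapt 1.9, HISAT2 2.0.4, StringTie 1.3.4d and edgeR, and as build hg38, a human one, although the identifiers are mouse, so no position from the table is printed. How reads were counted, and whether strand was used, is not stated in the sources at hand. All 64 columns were matched to libraries by name, and no 2 libraries of the same group were duplicates. Pairs from different groups were not checked.

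Deposited counts were tested in R 4.3.3 with edgeR 4.0.16 (default low-count filter, TMM scaling), which left 23778 genes with 99.975% of counts. A single model of the 8 groups had 24 residual degrees of freedom and a biological coefficient of variation of 0.185. Quasi-likelihood F tests were 2-sided, adjusted over all tested genes by Benjamini-Hochberg. SE are the log2 change over the square root of F. Members and the 33 lists (740 entries, with some genes in more than 1 list) were chosen with earlier results of these data known. The rule for named genes took the 12 higher and 12 lower with the smallest p (gene models excepted), up to 4 passing members of each list, 12 genes always evaluated and 5 for each other comparison. Ddit4, Klf15, Fmo2, Rxfp1, Smim32, Nxph4, Phlda3, Sesn1, Trp53inp1 and other genes given as not passing were named after their values were seen. Alternatives were other scalings and filters, limma 3.58.1 on log2 FPKM with a pseudocount of 0.1 or 1, DESeq2 1.42.0, covariates, a replicate block, and each library left out. The tests were checked on simulated counts that vary independently and hold no shared choroid plexus difference between libraries. That check therefore says nothing about the effect of such a difference. A few genes that the rule names are not reported here.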

Additional observations from a re-analysis of the deposited data

Results flagged for a closer look

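Ttr in adolescent defeat day 21 replicate 1 was at 622 CPM, far from the other 3 libraries of its group, of which the next was at 7.91 CPM. Eda2r in day 21 replicate 2 was at 0.0738 CPM (4 counts), with the other 3 libraries at 0. Map3k6 in day 21 replicate 3 was at 3.61 CPM, with the next library at 2.95 CPM. Ddit4 in day 1 replicate 4 was at 59.8 CPM, with the next at 50.05 CPM. These are 4 of 120 groups of 4 libraries examined, and chance sets about 1 in 20 apart in this way. The day change of Map3k6 differed between defeated and control adolescents by -1.56 on the log2 scale (edgeR, adjusted p = 0.0454). The day change of Egr3 differed between defeated adolescents and defeated adults by 0.56 on the log2 scale (edgeR, adjusted p = 0.00642).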

How the results depend on the processing

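The 148 genes of the day comparison after defeat became 144 with upper quartile scaling (69 higher, 75 lower) and 140 with a mean FPKM of at least 5 (67 higher, 73 lower), 70 with no filter on low counts, 21 with the Ttr level as a covariate, 28 with a choroid plexus score, 12 with 3 scores together (choroid plexus, striatum, myelin), 273 in a fit of only the groups compared (72 higher, 201 lower), 428 with DESeq2, and 59 to 107 with 1 library left out. With only the day 21 library above 100 CPM of Ttr, an alternative chosen after seeing the data, 3 genes passed; its lone library is assumed to vary like the other groups. The 220 genes of controls became 125 with no filter, 336 with a mean FPKM of at least 5, 15 with the 3 scores, 597 with DESeq2, 331 with limma on log2(FPKM + 1), 59 to 204 with 1 library left out and 93 without the control libraries above 100 CPM of Ttr, also chosen after seeing the data. The single interaction gene became 0 with no filter, with the FPKM filter, with each covariate set and with limma on either pseudocount, 15 with DESeq2 and 0 to 8 with 1 library left out. The single gene of the age comparison became 4 in a fit of only the groups compared, 32 with DESeq2, 2 with limma on log2(FPKM + 1) and 1 to 6 with 1 library left out.

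Samples of the same replicate number shared little deviation from their group means (correlations from -0.00173 to 0.0455 for the defeated adolescents). Low correlations cannot exclude a pairing by number, and the main model used none. With the replicate block the counts were 130 (24 higher, 106 lower) after defeat, 48 in controls, 5 for the interaction and 0 for the age comparison, where the adjusted p of Egr3 was 0.0745.

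Over the genes named and all alternatives, 975 values kept their side of the threshold, 337 lost it, 8 gained it and 8 turned in sign, all 8 of genes that had not passed. Ttr was at 7.06e-05 with its own level as a covariate and at 0.20 with 3 scores, and Arc at -0.035 with the Ttr covariate. Nr3c1 ranged from -0.00152 to 0.0455 with 1 library left out. With only the high-Ttr library of day 21, Fos was at -0.42, Egr1 at -0.14, Arc at -0.44 and Nr3c1 at -0.043. The cause of these shifts was not tested. Of the 38 changed genes named by rule, 22 kept their call whichever 1 of the 8 libraries was left out.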

Other observations

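Several genes known as targets of the tumour suppressor p53 were among those lower at day 21 after defeat. They were picked after their values were seen from the 0.379% of all genes that fell, and no test of the group was made. Other p53 targets were not counted, so the share of such targets that fell is not known here. Beside Eda2r these were Phlda3, a repressor of Akt, Sesn1, a sestrin that restrains mTORC1, and Trp53inp1. Phlda3 stood at 31.2, 32, 36.1 and 28 CPM at day 1 and at 26.3, 25.4, 22.5 and 23 CPM at day 21, without overlap (log2 change -0.39 ± 0.08, adjusted p = 0.0246, edgeR). Its control change was -0.33 ± 0.08 (adjusted p = 0.0480). Sesn1 stood at 64.9, 60.1, 58.3 and 67.5 CPM at day 1 and at 55.2, 54.8, 54.1 and 51.5 CPM at day 21 (-0.22 ± 0.05, adjusted p = 0.0247), with a control change of 0.06 ± 0.05. Trp53inp1 stood at 14.8, 16.3, 15.6 and 20.5 CPM at day 1 and at 11.9, 12, 13.5 and 12.3 CPM at day 21 (-0.43 ± 0.10, adjusted p = 0.0270), with a control change of -0.04 ± 0.09. Phlda3 lost its call without day 1 replicate 3 or day 21 replicate 3 or 4 (adjusted p up to 0.108), Sesn1 without day 1 replicate 1 or 4 or day 21 replicate 3 or 4 (up to 0.0865), and Trp53inp1 without day 1 replicate 4 or day 21 replicate 1, 2 or 4 (up to 0.119). With the Ttr covariate the adjusted p was 0.129 for Phlda3, 0.167 for Sesn1 and 0.150 for Trp53inp1.

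Tbr1, a transcription factor of cortical excitatory neurons, did not pass after defeat, at -0.42 ± 0.12 on the log2 scale (adjusted p = 0.0901, edgeR). In controls it was lower at day 21, at -0.54 ± 0.12 (adjusted p = 0.0189).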
